A study of Mus musculus with 4 samples.

Results

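The 34 genes described here encode the steps that take glucose into a cell and turn it into lactate, and transcripts that rise when oxygen is short. They were chosen by name, and all 34 were among the 27998 genes of the count tables: 3 transporters of glucose and lactate (Slc2a1, Slc2a3, Slc16a3), 15 glycolytic enzymes, 15 targets of hypoxia-inducible factor (HIF) outside the glycolytic chain, and Hif1a, the oxygen-regulated HIF subunit. The cells came from tumours transplanted into wild-type mice of the inbred strain 129S6. Mice were injected intraperitoneally on days 3, 6 and 9 after transplant with 200 µg of rat IgG2a as the control, of anti-PD-1 (clone RMP1-14), of anti-CTLA-4 (clone 9D9), or with both checkpoint antibodies, which block inhibitory receptors of T cells. Tumours were digested with collagenase for 1 h at 37 °C, and live cells carrying the leukocyte protein CD45 were sorted and counted cell by cell with the 10x Genomics 3′ kit, version 1. Each of the 4 groups was 1 library, so no difference between groups could be tested, and how many mice each library pools is not stated in the labels.

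Glycolysis splits glucose to pyruvate with a small yield of ATP, and lactate dehydrogenase then turns pyruvate into lactate, which leaves the cell through a proton-coupled carrier. HIF is a pair of transcription factors whose alpha subunit is hydroxylated and degraded while oxygen is present; when it is stable it binds a short DNA element and raises transcription of glycolytic genes and of genes for oxygen sensing, mitophagy, vessel growth and lipid storage. In macrophages and neutrophils this programme also follows inflammatory signals, and activated T cells raise glycolysis as they grow.

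The promoters are shown first because both gene groups are known to be read through the same short element. RefSeq promoter windows of GRCm38.p6, each 300 bases long and reaching from 250 bases before a gene's start to 50 bases after it, were found for 31 of the 34 genes; Ero1l is listed there as Ero1a, and Slc2a3, Bnip3l and Ndrg1 had no entry. The core of the HIF element, ACGTG or GCGTG on either strand, stood in a window of 29 of the 31 genes (93.5%), against 46.7% of the 27025 genes in the table. It was in 13 of 15 enzyme genes and 13 of 13 HIF target genes, and in none of the windows of Gpi1 and Tpi1. ACGTG alone was in 24 of 31 (77.4%, against 21.8% of all genes) and GCGTG alone in 21 of 31 (67.7%, against 35.2%). The overlapping letters CACGTG, which other factors also bind, were in 4 of 31 (12.9%, against 8.09%). A match is a description of these letters and not a binding site. The windows of 6 genes follow, read 5′ to 3′ along the gene's own strand, with the matches in capitals (in either orientation): the 4 HIF targets with the largest combination ratio in myeloid cells, the enzyme gene with the largest one, and Tpi1 as an enzyme gene without a match. Where a gene had several windows, as Hilpda did, the second is shown, because it holds the most matches. They lie at chr6:29272376-29272675 (plus strand) for Hilpda, chr12:54203825-54204124 (minus) for Egln3, chr14:45318523-45318822 (minus) for Ero1l, chr7:138909457-138909756 (minus) for Bnip3, chrX:106186850-106187149 (plus) for Pgk1 and chr6:124814109-124814408 (minus) for Tpi1.
Hilpda: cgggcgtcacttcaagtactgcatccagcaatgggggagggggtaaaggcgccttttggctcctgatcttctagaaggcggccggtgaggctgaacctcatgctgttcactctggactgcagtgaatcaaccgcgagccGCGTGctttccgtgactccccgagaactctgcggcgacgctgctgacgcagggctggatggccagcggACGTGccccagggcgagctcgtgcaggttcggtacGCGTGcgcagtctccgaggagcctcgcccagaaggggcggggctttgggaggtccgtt
Egln3: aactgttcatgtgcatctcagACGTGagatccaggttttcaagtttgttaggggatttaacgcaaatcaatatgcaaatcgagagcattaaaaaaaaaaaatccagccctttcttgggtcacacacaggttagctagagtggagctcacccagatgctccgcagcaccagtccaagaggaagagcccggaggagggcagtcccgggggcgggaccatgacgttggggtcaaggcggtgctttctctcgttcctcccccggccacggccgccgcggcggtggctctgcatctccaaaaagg
Ero1l: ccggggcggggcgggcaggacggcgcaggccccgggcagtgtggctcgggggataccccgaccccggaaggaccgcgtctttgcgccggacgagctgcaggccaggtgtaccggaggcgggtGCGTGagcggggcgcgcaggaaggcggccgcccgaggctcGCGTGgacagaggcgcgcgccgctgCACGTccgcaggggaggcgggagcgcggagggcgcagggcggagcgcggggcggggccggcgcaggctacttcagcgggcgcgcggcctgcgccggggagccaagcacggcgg
Bnip3: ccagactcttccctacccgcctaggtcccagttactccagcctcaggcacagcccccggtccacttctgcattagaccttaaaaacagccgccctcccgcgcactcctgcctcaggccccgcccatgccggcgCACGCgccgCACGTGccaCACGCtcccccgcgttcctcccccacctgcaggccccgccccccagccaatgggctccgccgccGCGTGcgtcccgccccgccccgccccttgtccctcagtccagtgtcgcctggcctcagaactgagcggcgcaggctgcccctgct
Pgk1: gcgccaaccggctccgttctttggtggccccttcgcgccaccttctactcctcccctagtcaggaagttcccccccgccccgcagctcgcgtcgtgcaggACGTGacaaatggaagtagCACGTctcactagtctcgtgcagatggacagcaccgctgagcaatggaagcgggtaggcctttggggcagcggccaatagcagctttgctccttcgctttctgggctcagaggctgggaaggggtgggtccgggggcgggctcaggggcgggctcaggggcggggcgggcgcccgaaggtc
Tpi1: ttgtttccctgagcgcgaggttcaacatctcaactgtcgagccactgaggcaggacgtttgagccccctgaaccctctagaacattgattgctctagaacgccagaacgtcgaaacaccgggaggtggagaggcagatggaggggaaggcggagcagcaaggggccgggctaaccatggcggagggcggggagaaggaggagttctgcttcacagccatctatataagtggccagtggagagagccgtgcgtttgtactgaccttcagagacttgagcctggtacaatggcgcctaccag
The Bnip3 window held 5 matches, those of Hilpda and Ero1l 3 each, that of Pgk1 2 and that of Egln3 1. In the Bnip3 window, 2 of the matches overlap in the letters CACGTG, 1 on each strand.

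The authors listed 14491 cells, 3336 to 3945 per library with 11176246 to 13374294 UMIs (molecular tags, so that 1 tag counts 1 transcript copy), and gave each cell a cluster number without a name. The 7 clusters in the authors' own lymphoid table, with 4987 cells, were taken as lymphoid, and 10 others with 9261 cells as myeloid. A cluster of 188 cells with markers of both and a cluster of 55 cells were left out. UMIs were summed over the cells of a lineage or cluster in each library and divided by the UMI total of those cells, in units of 1e+06 UMIs (CPM). Levels listed together run from control through anti-PD-1 and then anti-CTLA-4 to the combination, and ratios likewise without the control; all 3 ratios share the control library. The kit counts transcripts at the 3′ end, so levels are compared for 1 gene between cells and not between genes. Intervals are 95% and cover counting error only. A gene was called higher or lower at a ratio of 1.5-fold or more, a rule of size and not a test, and the share of all measured genes past it is given beside the first count of each comparison. A batch would coincide with a library, and neither can be told apart from the group.

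In myeloid cells, the glucose transporter Slc2a1 stood at 68.1, 119.6, 100.01 and 124 CPM. Slc16a3, which exports lactate, stood at 159, 247, 201 and 279.9 CPM. Both were lowest in the control library, with log2 ratios to control of 0.81, 0.55 and 0.86 for Slc2a1 and 0.63, 0.34 and 0.81 for Slc16a3. Slc2a3, a high-affinity glucose transporter, was scarce in these cells, with 51, 40, 31 and 28 UMIs, and was lowest with the combination, at a log2 ratio of -0.61 (counting interval -1.34 to 0.07). In lymphoid cells the transporters were arranged otherwise. There Slc2a3 stood at 48.4, 47.7, 58.3 and 91.2 CPM and was highest with the combination, at a log2 ratio of 0.91 (counting interval 0.64 to 1.19). Slc2a1 stood at 31.9, 29.4, 35.1 and 44.7 CPM, a spread much smaller than in myeloid cells, and Slc16a3 at 79.4, 53.4, 60.4 and 63.0 CPM, highest in the control library.

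The high control level of Slc16a3 in lymphoid cells came largely from cluster 10, the regulatory T cell-like cells named by Foxp3 and Il2ra. In that cluster Slc16a3 stood at 267, 44.5, 27.5 and 62.9 CPM. The cluster was 12.6% of the control library's lymphoid cells and held 110 of the 279 lymphoid Slc16a3 UMIs there (39.4%), 28 of them in 1 cell. Ddit4, an inhibitor of mTORC1 signalling, was also highest in the control library in cluster 10, at 333, 100.1, 91.7 and 173 CPM. Of its 137 control UMIs in that cluster, 28 were in 1 cell.

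All 15 enzyme genes were measured in myeloid cells, and their summed level was 6843, 9527, 9479 and 10789.7 CPM, lowest in the control library. The median log2 ratio over the 15 was 0.47, 0.48 and 0.68, beside medians over all measured genes of -0.08, -0.12 and -0.18. With anti-PD-1, 5 of 15 were called higher (7.22% of all genes were) and 0 lower (14%). With anti-CTLA-4, 6 were higher (7.87% of all genes) and 0 lower (15.8%). With the combination, 9 were higher (7.94%) and 0 lower (19.7%): Hk2, Gpi1, Pfkl, Aldoa, Tpi1, Pgk1, Pgam1, Eno1 and Ldha. A scaling by median-of-ratios size factors adds 0.06, 0.10 and 0.15 to every myeloid log2 ratio. With the ratios taken within clusters and weighted by control cells, 2, 1 and 0 enzymes were called higher (7.39%, 8.41% and 8.97% of all genes), and the combination ratio of Pgam1 was -0.095.

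The 4 enzymes with the most UMIs were each lowest in the control library. Aldoa, the aldolase that splits fructose bisphosphate, stood at 1366, 1891, 2225 and 2357 CPM. Gapdh, the dehydrogenase step often used as a reference gene, stood at 1313, 1745, 1618 and 1729.6 CPM, with ratios of 0.41, 0.30 and 0.40. For Gapdh the 3 treated libraries lay close together, and for Aldoa the anti-PD-1 library lay below the other two. Eno1, the enolase, stood at 809.9, 1176, 1061 and 1348 CPM and Pkm, the last ATP-forming kinase, at 1163, 1550.2, 1444 and 1708 CPM, both highest with the combination. Ldha, which makes lactate, followed with 704, 978, 909.9 and 1191 CPM. Overlapping or closely related genes could share reads with some of these: Eno1b held 2871 UMIs beside 51262 of Eno1 over all cells, and Pgk1-rs7 held 125 beside 12942 of Pgk1. In the GENCODE annotation 12 of the 34 genes overlap a gene on the opposite strand, among them Aldoa (Fam57b), Gapdh (Iffo1), Tpi1 (Spsb2) and Ankrd37 (Ufsp2, Lrp2bp), and the labels do not state whether counting used strand.

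Pgk1, the first ATP-forming kinase, stood at 139.8, 277, 323 and 316 CPM and had the largest ratios among the enzymes in all 3 libraries, 0.99, 1.21 and 1.18. Hk2, the inducible hexokinase that traps glucose in the cell, stood at 33.7, 60.2, 59.0 and 63.1 CPM, whereas the housekeeping hexokinase Hk1 stood at 22.6, 21.0, 22.1 and 22.8 CPM, a spread within counting error. Pfkl, a subunit of phosphofructokinase, stood at 67.7, 115, 108 and 127 CPM. For Hk2 and Pfkl the control library was again the lowest of the 4. The platelet-type subunit Pfkp differed in that it was lower with the combination (99.3 CPM) than with anti-PD-1 (133) or anti-CTLA-4 (123), with 74.7 in the control. The other enzymes had combination log2 ratios of 0.72 (Tpi1), 0.68 (Gpi1), 0.68 (Pgam1), 0.35 (Pfkfb3, which makes the activator of phosphofructokinase) and 0.21 (Aldoc). Tpi1 and Gpi1, whose promoter windows held no match, had ratios of 0.79, 0.50 and 0.72 and of 0.14, 0.40 and 0.68.

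**Figure D1:**
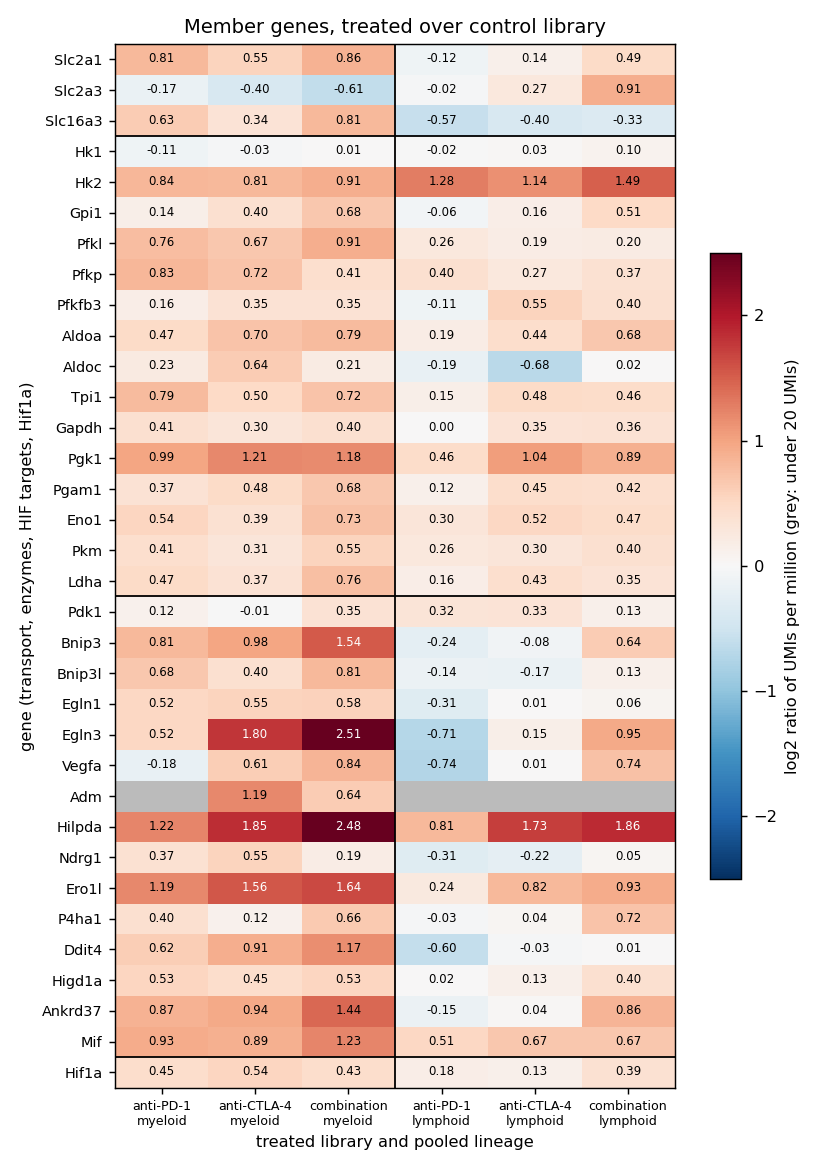
Heat map of the log2 ratio to the control library, with a row for each gene (grouped by role), a column for each treated library in pooled myeloid and in pooled lymphoid cells, the ratio as colour, and grey under 20 UMIs. The strongest myeloid colours with the combination belong to Hilpda, Egln3, Ero1l and Bnip3, at 2.48, 2.51, 1.64 and 1.54, and Slc2a3 differs in sign between the lineages there (-0.61 and 0.91).

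HIF targets had larger median ratios than enzymes in the myeloid cells of each treated library. Their summed level was 1448, 2548, 2697 and 3485 CPM, of which Mif alone made up 648, 1237, 1202 and 1519 CPM. The median log2 ratio was 0.58 over the 14 measured with anti-PD-1, and 0.89 and 0.84 over all 15 with anti-CTLA-4 and the combination. Called higher were 7 of 14, 9 of 15 and 11 of 15, and none lower, beside the background shares given above. Adm is among the 9 and the 11, on 9 control UMIs against 17 and 12. Its counting intervals were -0.02 to 2.58 and -0.71 to 2.09. With anti-PD-1 it had 5 UMIs and a log2 ratio of -0.61, and fell under the count minimum, so it could not be called lower. Within clusters, weighted by control cells, 2, 2 and 3 were called higher (7.39%, 8.41% and 8.97% of all genes) and 1, 0 and 2 lower (10.7%, 12.2% and 14.9%). The HIF median exceeded the enzyme median by 0.11, 0.41 and 0.16.

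Hilpda, which sits on lipid droplets and slows their breakdown, had the largest ratios of the group with anti-PD-1 and anti-CTLA-4. It stood at 111, 259, 402 and 621 CPM in myeloid cells, lowest in the control and highest with the combination. The log2 ratios were 1.22 (counting interval 1.11 to 1.33) for anti-PD-1, 1.85 (counting interval 1.75 to 1.96) for anti-CTLA-4 and 2.48 (counting interval 2.38 to 2.58) for the combination. Egln3, a prolyl hydroxylase that marks HIF for destruction and is itself a HIF target, stood at 6.80, 9.75, 23.7 and 38.9 CPM on 64, 81, 180 and 309 UMIs. The anti-PD-1 library was within 1.5-fold of the control for Egln3, and the other two treated libraries were past it. The related hydroxylase Egln1 differed less, from 10.6 to between 15.3 and 15.9 CPM.

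Ero1l, an oxidase of protein folding in the endoplasmic reticulum, stood at 35.8, 81.9, 106 and 112 CPM in myeloid cells. Bnip3, a mitochondrial receptor for mitophagy, stood at 118, 207, 233 and 343 CPM. For both genes each treated library was above the control. The related receptor Bnip3l stood at 122, 196, 162 and 214 CPM, with a smaller spread. Mif, a cytokine that holds macrophages in place, had the most UMIs of the group and stood at 648, 1237, 1202 and 1519 CPM. Higd1a, a mitochondrial respiratory factor, stood at 205, 296, 279 and 296 CPM, nearly level across the 3 treated libraries. The ankyrin-repeat gene Ankrd37 had ratios of 0.87, 0.94 and 1.44 and Ddit4 of 0.62, 0.91 and 1.17.

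Some HIF targets differed less. Vegfa, the vessel growth factor, stood at 35.6, 31.4, 54.4 and 63.7 CPM and was lower with anti-PD-1 than in the control. Pdk1, the kinase that keeps pyruvate out of the mitochondria, had ratios of 0.12, -0.01 and 0.35, Ndrg1 of 0.37, 0.55 and 0.19 and P4ha1, a collagen prolyl hydroxylase, of 0.40, 0.12 and 0.66. Adm, the vessel-dilating peptide adrenomedullin, rested on 9, 5, 17 and 12 UMIs, and counts as called higher with anti-CTLA-4 and the combination. Hif1a stood at 174, 238, 253 and 235 CPM, about the same in the 3 treated libraries and in none of them past 1.5-fold. Over all 34 genes, 14 of 33 measured, 15 of 34 and 22 of 34 were called higher and 0, 0 and 1 (Slc2a3) lower, beside 7.22%, 7.87% and 7.94% of all genes higher and 14%, 15.8% and 19.7% lower.

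In the pooled lymphoid cells the enzymes and the HIF targets parted. The enzyme sum was 6462, 7298, 8619.9 and 8986 CPM and the HIF target sum 1481, 1718, 2028 and 2237 CPM, both lowest in the control. Mif alone made up 613, 874, 977 and 975 CPM of the HIF target sum. That the anti-PD-1 sum lay above the control rested on this gene. Enzyme medians were 0.16, 0.43 and 0.40, against medians of -0.01, -0.05 and -0.04 over all measured genes. HIF target medians over 14 measured genes were -0.15, 0.04 and 0.65, so that they lay below the enzyme median by 0.31 and 0.39 with the single antibodies (differences of -0.31 and -0.39) and above it by 0.25 with the combination. With anti-PD-1, 1 enzyme (Hk2) and 1 HIF target (Hilpda) were called higher (8.72% of all genes) and 3 HIF targets (Egln3, Vegfa, Ddit4) lower (9.76%). Of these 3, Egln3 rested on 29 and 13 UMIs (counting interval -1.80 to 0.25) and Vegfa on 14 and 6 (-2.47 to 0.67). The interval of Ddit4 was -0.84 to -0.37. With anti-CTLA-4, 2 enzymes (Hk2, Pgk1) and 3 HIF targets (Hilpda, Ero1l, Mif) were higher (8.36%) and 1 enzyme (Aldoc) lower (13.6%). With the combination, 3 enzymes (Hk2, Aldoa, Pgk1), 8 HIF targets and Slc2a3 were higher (8.06%) and 0 lower (11.6%). Vegfa, among the 8, rested on 14 and 24 UMIs. After every cell was thinned to 1000 UMIs the combination median of HIF targets was 0.40 instead of 0.65. Averaged within clusters, the medians of HIF targets became 0.15 with anti-PD-1 and 0.31 with anti-CTLA-4. Enzyme and HIF target medians then lay closer together with the single antibodies than in the pooled cells, and farther apart with the combination. The enzyme values are given with the lymphoid clusters below.

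Hilpda had the largest ratios among the HIF targets in lymphoid cells, at 66.3, 117, 221 and 241 CPM, with the anti-CTLA-4 and combination libraries above anti-PD-1 and the control lowest. Pgk1 stood at 195, 268, 399 and 360.4 CPM and Mif at 613, 874, 977 and 975 CPM. Ero1l stood at 35.0, 41.2, 61.8 and 67.0 CPM, with the 2 libraries that received anti-CTLA-4 highest. Aldoa stood at 1284, 1468, 1747 and 2059.9 CPM and Hif1a at 288, 325, 314 and 377 CPM, each highest with the combination. Bnip3 differed little with the single antibodies, at 40.7, 34.3, 38.5 and 63.3 CPM. Ddit4 was lowest with anti-PD-1, at 133, 87.4, 130.2 and 134 CPM. Hk2 was called higher in each treated library, but rested on 13, 24, 29 and 38 UMIs, and Adm had 0, 0, 1 and 1 UMIs and was not measured. Ankrd37 in the control library had 52 of its 115 lymphoid UMIs in 1 cell; without the highest cell of each library its log2 ratios went from -0.15, 0.04 and 0.86 to 0.61, 0.84 and 1.47. Likewise 16 of 51 Aldoc UMIs of the anti-PD-1 library were in 1 cell, and its ratio went from -0.19 to -0.67.

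The libraries differed in which myeloid clusters they held. Cluster 1, led by Cd72, Vcam1 and Cd81, was 47.7% of myeloid cells in the control library and 13.1%, 18.6% and 10.5% in the treated ones. Clusters 2 (macrophage-like, led by Pf4), 4 (monocyte-like, led by Chil3) and 7 (led by Rsad2 and Inhba) together were 14.2%, 40.3%, 43.7% and 65.9%, and they held 47.8%, 73.4%, 79.6% and 86.8% of the myeloid Hilpda UMIs. With the ratios taken within each cluster and weighted by the control library's cells, the enzyme medians became 0.21, 0.17 and 0.13 and the HIF target medians 0.29, 0.23 and 0.22. Weighted instead by the treated library's cells, a choice made after seeing the data, they were 0.18, 0.10 and 0.19, and 0.24, 0.26 and 0.22. The clusters were made from expression data of the same cells, so the make-up of the clusters and the level inside them cannot be fully told apart.

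Inside cluster 7 the HIF targets differed more than the enzymes. There the HIF target sum was 3389.6, 4789.96, 5548 and 5928 CPM and the enzyme sum 12588, 13326, 13860.2 and 14229.7 CPM, so the first differed far more between libraries than the second. The combination medians were 0.47 for HIF targets and 0.10 for enzymes. Hilpda stood at 587, 1100, 1433 and 1511 CPM in cluster 7 and Bnip3 at 404, 586, 646 and 678 CPM, each lowest in the control. Slc16a3 went the other way, at 474, 444, 333 and 305 CPM. Over all libraries, cluster 7 had the highest enzyme sum of the clusters, 13749 CPM, and the highest HIF target sum, 5285 CPM.

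Cluster 1 showed no such gradient for Hilpda, at 61.9, 69.1, 64.5 and 71.6 CPM, and its combination medians were 0.05 for enzymes and -0.11 for HIF targets. In cluster 4, which had 55 control cells, Hilpda stood at 407, 487, 657 and 710.2 CPM, and in cluster 2 at 305, 276, 377 and 456 CPM. Cluster 0, monocyte-like and led by Ms4a4c, had Hilpda at 74.4, 145, 156 and 186 CPM. The control was lowest in clusters 0, 1 and 4, and in cluster 2 anti-PD-1 lay below it. Combination medians of enzymes and HIF targets were 0.09 and 0.28 in cluster 0, 0.21 and 0.28 in cluster 2, and 0.16 and 0.33 in cluster 4. Averaged over clusters by control cells, the combination ratios of several genes that were high in the pooled cells lay near or below 0. That of Bnip3 was -0.07 and that of Slc2a1 -0.16. This average leans most on cluster 1, which held 47.7% of the control library's myeloid cells. Weighted by treated cells, neither Bnip3 nor Slc2a1 changed sign. Nor does the average hold for each cluster: Bnip3 was lowest in the control in the cluster led by Rsad2, as given above.

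**Figure D2:**
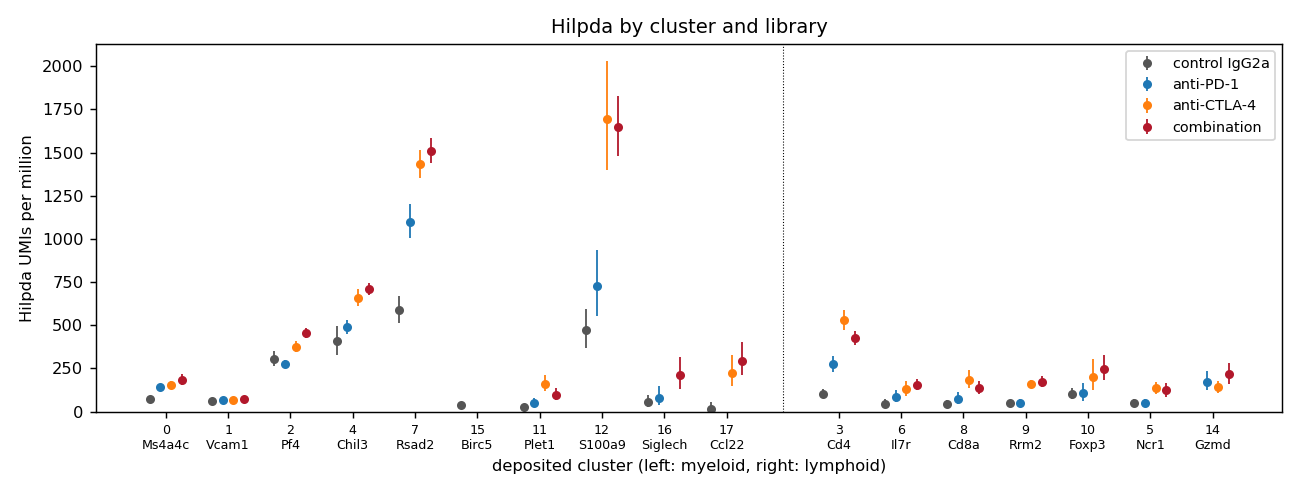
Hilpda level (CPM, linear axis from 0) in each cluster and library with 95% counting intervals, for libraries with at least 30 cells of the cluster. Cluster 7 reaches 1511 CPM and cluster 12 reaches 1647 CPM with the combination, while cluster 1 stays between 61.9 and 71.6 CPM.

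Neutrophil-like cells (cluster 12, led by S100a9) were few, 53, 38, 41 and 116 per library, and had the highest transporter sum of the clusters, 824 CPM over all libraries, but came after cluster 7 in the anti-PD-1 library (578 against 645 CPM). Hilpda stood at 472, 726, 1692 and 1647 CPM and Egln3 at 53.9, 73.8, 159 and 196 CPM, the latter on 8, 6, 11 and 42 UMIs. Levels of both were higher in the 2 libraries that received anti-CTLA-4. The enzyme and HIF target medians with the combination were 0.49 and 0.70 over 13 and 10 measured genes. Migratory dendritic cell-like cells (cluster 17) had combination medians of 0.76 and 1.03, but from 31 control and 38 combination cells and 5 HIF targets. Plasmacytoid dendritic cell-like cells (cluster 16) had medians below 0, -0.24 and -0.51, and conventional dendritic cell-like cells (cluster 11) -0.07 and 0.20.

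Within the T cell-like clusters 3, 6 and 8 and the NK cell-like cluster 5 the combination medians were larger than in the pooled lymphoid cells. In cluster 3, led by Cd4, Hilpda stood at 103, 275, 529.9 and 426 CPM and Pgk1 at 257, 401, 517 and 460.4 CPM. Slc2a3 stood at 84.1, 94.4, 126 and 165 CPM there, the highest level of this transporter over the clusters with all libraries together. All 3 genes were lowest in the control, and Hilpda and Pgk1 were highest with anti-CTLA-4. The median ratios in cluster 3 were 0.16, 0.37 and 0.44 for enzymes and 0.45, 0.71 and 0.77 for HIF targets. In cluster 8, led by Cd8a, they were 0.47, 0.69 and 0.72, and 0.28, 1.02 and 0.80. In cluster 6, led by Il7r, they were 0.38, 0.34 and 0.72, and 0.45, 0.61 and 0.85. NK cell-like cells (cluster 5, led by Ncr1) had 0.39, 0.48 and 0.51, and 0.14, 0.33 and 0.76. The median over all genes lay between -0.09 and 0.03 in these 4 clusters.

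Regulatory T cell-like cells had HIF target medians below 0 with the single antibodies. In cluster 10 the HIF target medians were -0.27, -0.73 and 0.07 and the enzyme medians -0.11, 0.13 and 0.14, from 182, 82, 48 and 91 cells. Hilpda stood at 102, 106, 202 and 246 CPM in cluster 10. Cycling T cells (cluster 9, led by Rrm2) had enzyme medians of 0.00, 0.27 and 0.25 and HIF target medians of -0.08, 0.12 and 0.25. Clusters 14 and 15 had too few cells in the control or the treated libraries to be compared. Averaged within clusters by control cells, the lymphoid medians were 0.26, 0.37 and 0.42 for enzymes and 0.15, 0.31 and 0.73 for HIF targets.

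**Figure D3:**
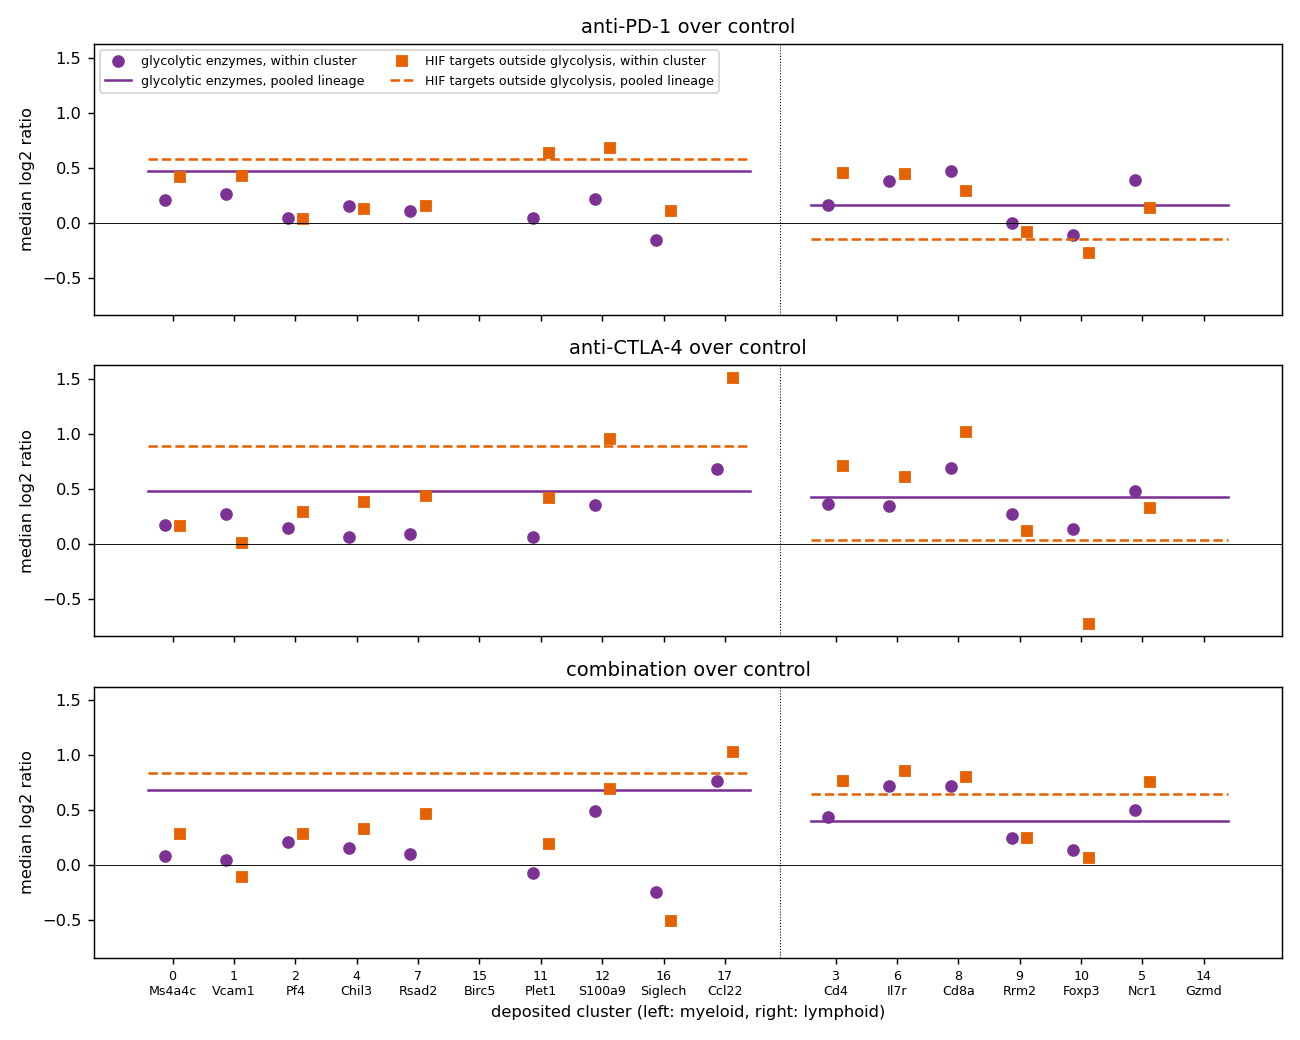
Median log2 ratio to control of the enzymes and of the HIF targets in each cluster, in 1 panel per treated library; circles (enzymes) and squares (HIF targets) are clusters with at least 30 cells in both libraries, and lines are the medians of the pooled lineage. In clusters 3, 6 and 8 the combination points lie at 0.44 to 0.72 for enzymes and 0.77 to 0.85 for HIF targets, and in clusters 0, 1, 2 and 4 at 0.05 to 0.21 and -0.11 to 0.33.

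Across clusters, with all libraries together, both gene groups were highest in clusters 7 and 4. Cluster 7 was also first for both sums within each of the 4 libraries. Cluster 4 was second for enzymes in all 4, but for HIF targets it was second in the control and anti-PD-1 libraries only, and neutrophil-like cells were second in the other two. Over all libraries, enzyme sums ranged from 4305 CPM in plasmacytoid dendritic cell-like cells to 13749 CPM in cluster 7, with 13087 in cluster 4 and 10467 in cluster 3. HIF target sums ranged from 944 CPM in cycling macrophage-like cells (cluster 15) to 5285 in cluster 7, with 3878 in cluster 4 and 3676 in neutrophil-like cells. Individual genes had other leaders over all libraries, not all of them first within each library. Slc2a1 and Slc16a3 were highest in neutrophil-like cells, at 267 and 495 CPM, and Pfkfb3 in migratory dendritic cell-like cells, at 212 CPM. Pfkp was highest in conventional dendritic cell-like cells (235 CPM), Ddit4 in regulatory T cell-like cells (222 CPM, first in the control library only) and Hif1a and Ldha in cluster 3 (566 and 1437 CPM). Within libraries, cluster 3 was first for Hif1a in all but the anti-PD-1 library and for Ldha in that library only.

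**Figure D4:**
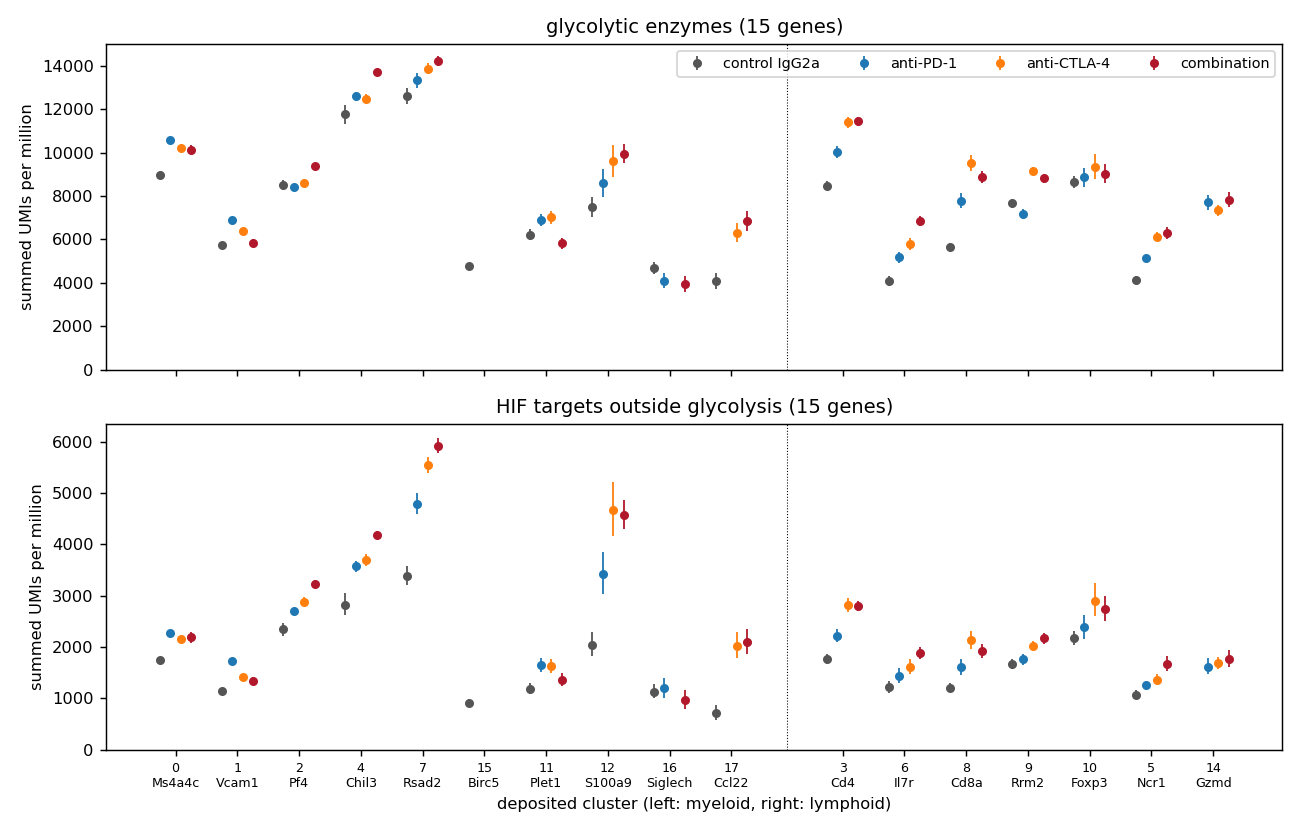
Summed level (CPM) of the enzymes and of the HIF targets in each cluster, with a point and 95% counting interval for each library that had at least 30 cells there. Cluster 7 is highest for both groups over all libraries, at 13749 and 5285 CPM, and over all libraries cluster 16 is lowest for enzymes and cluster 15 for HIF targets.

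Within the control library myeloid and lymphoid cells had similar sums, 6843 against 6462 CPM for enzymes and 1448 against 1481 CPM for HIF targets. The median log2 of myeloid over lymphoid was 0.17 for enzymes and 0.05 for HIF targets, beside -0.23 over all genes. Of 15 enzymes 3 were higher in myeloid cells and of 14 HIF targets 4 (23.2% of all genes were), and 2 and 3 were higher in lymphoid cells (33.7%). Behind these medians single genes lay far apart. Hk2 (3.13), Vegfa (3.11) and Pfkfb3 (2.17) were higher in myeloid cells on the log2 scale, as was Bnip3 (1.53). Slc2a3 (-3.15) and Ddit4 (-2.51) were higher in lymphoid cells, as was Hif1a (-0.72). In the treated libraries the HIF target median of myeloid over lymphoid was 0.72, 0.54 and 0.57 and the enzyme median 0.51, 0.33 and 0.25, so the HIF targets were farther apart between the lineages there than in the control.

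**Figure D5:**
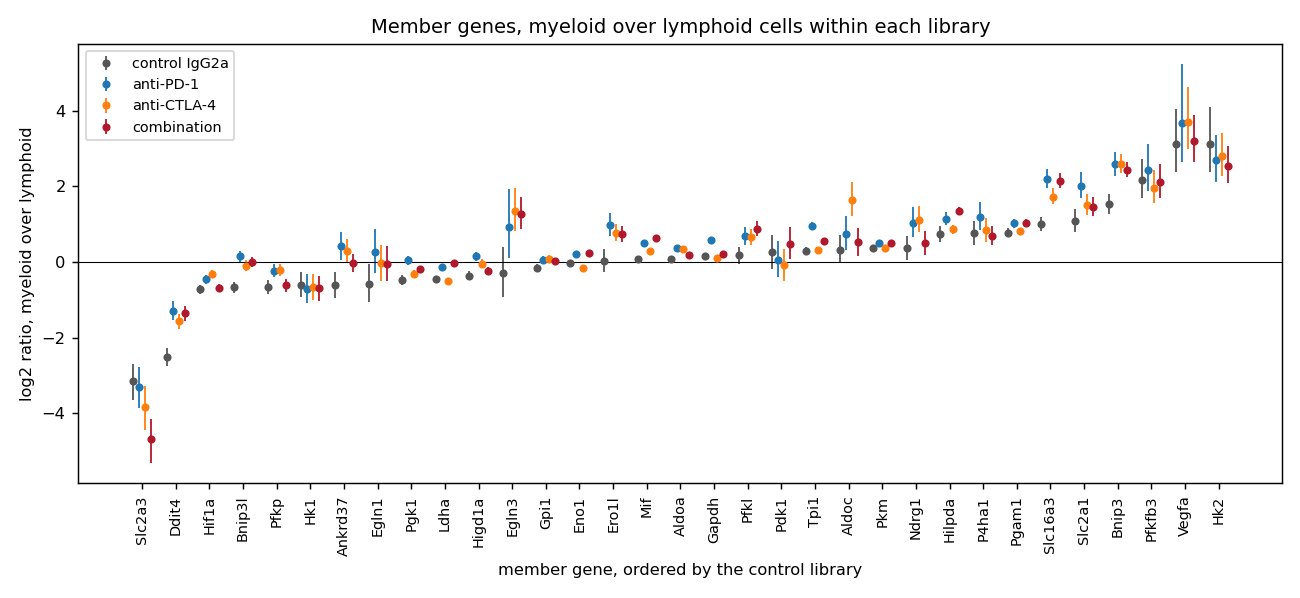
Log2 ratio of the myeloid to the lymphoid level of each gene within each library, with 95% counting intervals. Slc2a3 lies at -3.15 and Hk2 at 3.13 in the control library, and most of the other genes lie nearer 0.

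Macrophage transcripts were also counted in lymphoid cells. Macrophage genes reached 8.08%, 7.04%, 3.64% and 5.68% of their myeloid level in lymphoid cells, and all 10 genes of the macrophage list were detected there, summing to 1143, 711, 410 and 556 CPM. A gene at that share of its myeloid level would account for 73.6%, 46.3%, 25.8% and 33.5% of the lymphoid Hk2 level and for 72.2%, 96.7%, 49.3% and 53.6% of that of Vegfa. For Hilpda it would account for 13.6%, 15.7%, 6.63% and 14.6%, and for the enzyme sum for 8.56%, 9.19%, 4.01% and 6.82%. With that amount subtracted, the lymphoid combination medians were 0.46 for enzymes and 0.58 for HIF targets. Cells with UMIs of both Cd3 and C1q genes were 31.5%, 22.4%, 23.3% and 17.5% of lymphoid cells. Free RNA and droplets with more than 1 cell cannot be told apart by these values.

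The share of cells with a Hilpda UMI also differed. After each cell was thinned to 1000 UMIs, 7.87%, 15.6%, 22.2% and 32.2% of myeloid cells held one (19.5%, 28.4%, 37.8% and 52.1% before thinning). In lymphoid cells the shares were 6.26%, 10.1%, 13.7% and 17.6% (12.1%, 17.2%, 29.6% and 29.5% before). C1qb, which lymphoid cells should lack, was in 13.2%, 9.27%, 8.0% and 6.01% of thinned lymphoid cells. The lymphoid Hilpda share of the control library lay below that of C1qb. C1q genes are more abundant than Hilpda in macrophage-like cells, so the C1qb share does not give the background to expect for Hilpda. Scaled to its myeloid level, background would account for 13.6% of the control library's lymphoid Hilpda level. The share of cells by itself is not read as expression. In cluster 7 the shares of Hilpda were 39.6%, 50.4%, 59.8% and 66.0%, and in cluster 1 they were 3.64%, 4.86%, 4.43% and 5.08%. Median depths were 3833, 3285, 3225 and 3058.5 UMIs per myeloid cell and 1855, 1909, 2322.5 and 1710 per lymphoid cell, and thinning left out 6, 81, 63 and 133 myeloid and 5, 114, 60 and 189 lymphoid cells.

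Set against each antibody alone in myeloid cells, the combination was little different for enzymes. The enzyme median of combination over anti-PD-1 was 0.14 and over anti-CTLA-4 0.10, with 0 of 15 called higher or lower in either. HIF target medians were 0.37 and 0.34, with 4 of 14 higher than anti-PD-1 (7.24% of all genes) and 0 lower (11.3%), and 2 of 15 higher than anti-CTLA-4 (6.79%) and 0 lower (9.86%). Egln3 had a log2 ratio of 1.99 over anti-PD-1 (counting interval 1.64 to 2.37) and Bnip3 one of 0.73 (0.64 to 0.82). Within clusters, an alternative added after seeing the data, the medians were -0.20 and -0.09 for the enzymes and -0.20 and -0.09 for the HIF targets, so their direction turned. In lymphoid cells the enzyme medians were 0.21 and 0.01 and the HIF target medians 0.65 and 0.27.

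Of the neighbouring pathways in myeloid cells, oxygen sensing and further HIF targets had medians above 0 and the others medians near or below it. Of 13 pyruvate dehydrogenase and TCA cycle genes, the median log2 ratios were -0.09, -0.09 and -0.25, with 0 higher and 1 lower in each comparison. Idh3a, a subunit of isocitrate dehydrogenase, went from 63.6 CPM in the control to 32.6 with the combination (log2 ratio -0.96). The pentose phosphate pathway, which makes NADPH, had medians of -0.02, 0.09 and 0.17 and no call among 7 genes; G6pdx had the largest combination ratio, -0.41. Other isoenzymes of glycolysis had medians of -0.39, -0.14 and -0.53 over 10 of 13 measured genes, with 1, 3 and 0 higher and 3, 1 and 4 lower. The phosphofructokinase regulator Pfkfb4 went from 24.4 to 11.2 CPM with the combination, a log2 ratio of -1.12. Genes of oxygen sensing, 5 of 7 measured, had medians of 0.02, 0.55 and 0.41, with 0, 1 and 0 higher; Cited2, which competes with HIF for a coactivator, went from 126.7 to 179.9 CPM with the combination. Further HIF targets, 9, 9 and 10 measured of 13, had medians of 0.50, 0.52 and 0.81, with 4, 4 and 5 higher and 1, 0 and 1 lower. The count minimum is taken over the libraries compared, so these medians are not over the same set of genes. P4ha2, a subunit of a collagen prolyl hydroxylase, had 5 UMIs in the control and 27 with the combination, a log2 ratio of 2.57 with a counting interval of 1.28 to 4.41. It passed the count minimum through the combination library. The background shares for these counts are those given for myeloid cells above.

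In lymphoid cells the same lists had medians of -0.04, 0.04 and -0.02 (pyruvate dehydrogenase and TCA cycle), -0.06, -0.12 and -0.25 (pentose phosphate), 0.20, -0.22 and -0.47 (other isoenzymes), 0.38, 0.20 and 0.51 (oxygen sensing) and 0.02, -0.07 and -0.02 (further HIF targets). The muscle enolase Eno3 went from 72 UMIs in the control to 15 with the combination (log2 ratio -2.24), Epas1, the HIF-2 alpha subunit, from 9 to 54 (a 5.93-fold higher level), and Stc2 from 7 to 31 (log2 ratio 2.05). Dlat went from 35.6 to 23.1 CPM and Pgls from 159.7 to 231 CPM.

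Lists that follow cell handling also differed between the libraries. Genes induced by digestion and stress, 10 measured, had myeloid medians of 0.28, 0.13 and 0.40 and summed to 4545, 5011, 5320 and 6065 CPM. In lymphoid cells they summed to 1438, 1619, 1530 and 2403 CPM, with medians of 0.14, -0.40 and 0.34. Junb went from 585 to 1238 CPM with the combination in lymphoid cells and Egr1 from 34.7 to 88.3 CPM in myeloid cells. The 8 mitochondrially encoded genes had medians of -0.26, -0.29 and -0.48 in myeloid and -0.17, -0.30 and -0.44 in lymphoid cells. Their part in the ratios of the glycolytic and HIF target genes was not tested.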

How the data were processed

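Droplet libraries of live CD45+ tumour cells were analysed, 1 per group, so no test was run and no p-value is given. The authors deposited unnormalized UMI counts per gene and cell barcode, per the file headers, and a table of the 14491 cells they kept with 1 of 19 cluster numbers each; 2 further listed barcodes had no matrix column. Cell Ranger, Seurat and the mm10 genome are named, per the submitters' processing notes; versions, annotation, filters and use of strand were not given in the sources used here. Of the listed barcodes, 109 occur in more than 1 library.

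Counts were summed per library over the 10 myeloid clusters, the 7 lymphoid clusters (the same cells as the authors' own lymphoid table) and each cluster with 100 or more cells, and divided by the class total (CPM). The lymphoid lineage follows that table. Every other cluster of 100 or more cells was taken as myeloid, unless it held Cd3 and C1q markers together. Cluster names come from marker lists. The myeloid lineage and the cluster names are rebuilt and may differ from the authors' own. Left out were 243 cells of a cluster with Cd3 and C1q markers together and of a cluster of 55 cells. Log2 ratios used a prior of 0.5 counts, at least 20 counts over the pair compared and, for clusters, 30 cells in each library. For ratios averaged within clusters, the 20 counts were required of the pooled lineage and not of each cluster. Clusters with few or no counts of a gene therefore enter that average, and the prior weighs on their ratios. A call is a ratio of 1.5-fold or more. Intervals are exact 95% intervals for counting error only; class totals were 7589057 to 9411382 UMIs in myeloid and 2621352 to 3554578 in lymphoid cells.

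The 34 genes and all lists were chosen with earlier results of these data known. From the list of further HIF targets, 1 gene is not reported here and was left out of its counts. Values in every library are given for the 4 genes per role with the most UMIs, the 4 per role with the largest myeloid combination ratio and Hif1a; of other pathway lists the gene with the largest ratio is named. Hk1, Pfkp, Ldha, Tpi1, Gpi1, Aldoc, Vegfa, Ddit4, Egln1, Adm, Ankrd37, Pdk1, Ndrg1, P4ha1 and the single-cell cases fall outside that rule and were named after their values were seen. Shares of cells were taken after thinning to 1000 UMIs. No doublet caller was run; cells with both Cd3 and C1q UMIs were left out as an alternative. Other alternatives were size factors, count minimums, the pseudocount, a total without mitochondrial and ribosomal protein genes, cell means, cluster-weighted ratios, thinning, cycling clusters left out and a 2-fold call. Only log2 ratios were checked on simulated counts, as the median recovered for well-counted genes changed by known folds and for unchanged genes. Role medians, calls and changed genes of low count were not checked this way. Python 3.11.15, numpy 2.4.6, scipy 1.17.1, pandas 2.3.3 and matplotlib 3.10.9 were used.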

Additional observations from a re-analysis of the deposited data

Results flagged for a closer look

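Single genes lay on opposite sides of the control in the 2 lineages of the same library, each past 1.5-fold; with 1 library per group the difference was not tested. With anti-CTLA-4, Aldoc had a log2 ratio to control of 0.64 in myeloid and -0.68 in lymphoid cells. Within clusters, weighted by control cells, they were 0.56 and -0.13, neither past 1.5-fold; cluster 10 held 32 of the 78 control UMIs and was 12.6% of the control and 4.53% of the anti-CTLA-4 library's lymphoid cells. With anti-PD-1, Ddit4 had 0.62 in myeloid and -0.60 in lymphoid cells, and within clusters 0.20 and -0.49, neither past 1.5-fold. With the combination, Slc2a3 had -0.61 in myeloid cells, on 51 and 28 UMIs, and 0.91 in lymphoid cells, on 170 and 324 UMIs. Within clusters the Slc2a3 ratios were -1.52 and 0.85. The myeloid value spreads those 51 and 28 UMIs over clusters with no count minimum in each, so it adds little. The counting interval of the pooled myeloid ratio was -1.34 to 0.07.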

How the results depend on the processing

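No paired analysis was possible because each group has 1 library, and for the same reason no library could be left out. Of 150 role medians recomputed under the alternatives, 137 stayed inside an interval of the main median taken from the ranked ratios. So did all 16 comparisons of the lineages. All 78 differences between HIF targets and enzymes stayed inside a wider range that joins 2 such intervals. These ranges are wide, so a value inside them can still have changed much. With anti-CTLA-4, the myeloid HIF target and enzyme medians went from 0.89 and 0.48 to 0.23 and 0.17 by control cells. The difference between them still counted as inside. The cluster-weighted ratios made the largest changes. Weighted by control cells, myeloid enzyme medians went from 0.47, 0.48 and 0.68 (anti-PD-1, anti-CTLA-4, combination) to 0.21, 0.17 and 0.13, and HIF target medians from 0.58, 0.89 and 0.84 to 0.29, 0.23 and 0.22; weighted by treated cells (added after seeing the data, like the cluster-weighted calls, the comparisons with single antibodies and the left-out highest cells) they were 0.18, 0.10 and 0.19, and 0.24, 0.26 and 0.22. Myeloid calls of higher enzymes went from 5, 6 and 9 to 2, 1 and 0, and of higher HIF targets from 7, 9 and 11 to 2, 2 and 3, with 1 (anti-PD-1) and 2 (combination) HIF targets lower, beside 7.39%, 8.41% and 8.97% of all genes higher and 10.7%, 12.2% and 14.9% lower; lymphoid lower calls went from 3 HIF targets (anti-PD-1) to 1 (8.3% of all genes) and from 1 enzyme (anti-CTLA-4) to 0 (10.7%). Combination over anti-PD-1 and anti-CTLA-4 became -0.20 and -0.085 for enzymes and -0.20 and -0.092 for HIF targets. At 2-fold, myeloid enzymes called higher were 0, 1 and 1 and HIF targets 2, 4 and 7 (2.49%, 2.8% and 3.55% of all genes). Adm, on 9 and 17 UMIs, is among the 4. Lymphoid HIF targets were 0, 1 and 1 higher (2.72%, 3.17% and 2.68%) and 0 lower with anti-PD-1 (2.93%). The lymphoid enzymes higher at 2-fold were Hk2 in each treated library and Pgk1 with anti-CTLA-4, beside the same shares of all genes. With anti-CTLA-4, 0 lymphoid enzymes were lower (5.1%). These are fewer by construction. Size factors gave 0.84 for myeloid enzymes with the combination. Without the highest cell of each library, lymphoid anti-PD-1 calls were 1 enzyme lower (8.64% of all genes) and 2 HIF targets higher (6.25%). Without mitochondrial and ribosomal protein genes in the total, the log2 ratios of the sums were 0.42, 0.43 and 0.62 (myeloid enzymes; 0.48, 0.47 and 0.66 before), 0.76, 0.86 and 1.23 (myeloid HIF targets; 0.81, 0.90 and 1.27 before), and 0.45 and 0.50 (lymphoid enzymes with anti-CTLA-4 and the combination; 0.42 and 0.48 before). Single genes changed sign: by control cells, myeloid combination ratios of Slc2a1 (-0.16), Slc16a3 (-0.22), Pgam1 (-0.095), Bnip3 (-0.065), Ankrd37 (-0.23) and Vegfa (-0.54, and -0.48 with anti-CTLA-4); by treated cells, Pgam1 (-0.000517), Vegfa with anti-CTLA-4 (-0.069) and Adm (-0.16 with anti-CTLA-4, -0.97 with the combination). Adm with the combination was -0.51 thinned and -0.075 as a cell mean, and lymphoid Vegfa with anti-PD-1 was 0.20 as a cell mean, 0.41 by control cells and 0.51 by treated cells, from -0.74. Where no construction is named, the cause was not tested. A gene at 10 CPM is under 100 counts in either lineage of a library, which limits the low genes.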

Other observations

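The cluster left out of both lineages, number 13, held Cd3 and C1q genes in the same cells. Its medians were 0.52 for enzymes and 0.65 for HIF targets with anti-PD-1 and 0.61 and 0.69 with the combination, over 12 and 9, and 14 and 10 measured genes.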
